A study of Mus musculus with 24 samples.

Results

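The genes described here act in, or close to, the carriage of fatty acids into liver mitochondria and their oxidation there. They are 35 symbols chosen by name from the deposited gene table of 34945 named genes, and 34 of them passed a filter of a mean of at least 1 TPM over all libraries. TPM is the length-corrected share of a library's transcripts taken by a gene. The gene left out by the filter was Acss1, a mitochondrial acetyl-CoA synthetase gene, which did not exceed 0.175 TPM in any library. By role, 7 of the 35 act in uptake and activation, 4 in the carnitine shuttle, 8 are acyl-CoA dehydrogenases, 6 complete the cycle as hydratases, dehydrogenases and thiolase, 3 handle double bonds, 3 pass on electrons and 4 control fuel choice or coupling.

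By their labels, the mice lacked FoxO1, PPARα or both in the liver, through an Albumin-cre transgene, which is active in hepatocytes. Liver RNA was sequenced after a 4 h fast. On the high-fat diet (HFD), fed for 3 weeks, the groups were LFKO (FoxO1-/-), LPKO (PPARα-/-), LFPKO (FoxO1-/-; PPARα-/-) and WT, the last being floxed mice of genotype FoxO1lox/lox; PPARαlox/lox. The same 4 genotypes were studied on the regular diet (RD), with 3 libraries in each of the 8 groups. All groups thus shared the fast, and the labels give no age or sex, and do not say whether WT mice carried the transgene. Nor do they say that replicates were separate mice, so p-values measure the spread between libraries.

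In β-oxidation, a fatty acid is activated to an acyl-CoA, passed to carnitine by Cpt1a at the outer mitochondrial membrane, carried inward by Slc25a20 and returned to CoA by Cpt2. Each turn of the cycle then uses a dehydrogenase, a hydratase, a second dehydrogenase and a thiolase, and the electrons of the first step leave through Etfa, Etfb and Etfdh. PPARα is a nuclear receptor activated by fatty acids that binds DNA with RXR and is known in rodent liver for inducing genes of this pathway on fasting. FoxO1 is a transcription factor held out of the nucleus by insulin signalling, and is active in the fasted liver.

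Foxo1 was at 0.341 to 0.401 TPM in HFD LFKO, 0.250 to 0.346 TPM in HFD LFPKO, 0.308 to 0.484 TPM in RD LFKO and 0.317 to 0.398 TPM in RD LFPKO livers, against at least 4.06 TPM in every other library. Ppara did not check its labels, since its TPM in livers labelled LPKO or LFPKO was above that in WT livers: it averaged 80.9 TPM in HFD LPKO and 60.3 TPM in HFD LFPKO, against 43.0 TPM in HFD WT livers, and 66.0 TPM in RD LPKO and 65.4 TPM in RD LFPKO, against 53.1 TPM in RD WT livers. Its change in HFD LPKO against HFD WT livers was 0.90 ± 0.14 (limma, adjusted p = 0.000508). A gene total need not show the deletion of part of a transcript, so LPKO and LFPKO stand throughout for the livers labelled so. Major urinary protein and mitochondrially encoded transcripts took 28.4% to 50.1% of the TPM of HFD libraries, against 23.7% to 32.7% of RD libraries. A larger share for these transcripts leaves less for all other genes, so changes were also computed after median-of-ratios scaling, which divides each library by its median ratio to the average library. The median over all genes tested was 0.21 (log2) for HFD LFKO against HFD WT as deposited and -0.01 after scaling, and -0.29 for WT livers on HFD against RD as deposited and 0.02 after scaling. Read depth cannot be recovered from TPM and is unknown.

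Levels among the 35 genes spanned several orders of magnitude. Fabp1, the liver fatty acid-binding protein gene, averaged 9174 TPM over the 24 libraries (4341 to 15853), far above the next gene, Acaa2, a mitochondrial thiolase gene, at 542 TPM (286 to 810.3). Next came Acsl1 (316), Acadm (255), Etfa (239), Etfb (239), Acsl5 (217) and Hadh (209.9), all as mean TPM. Within the shuttle, Cpt1a averaged 142 TPM, above Cpt2 at 62.2 TPM and Slc25a20 at 50.6 TPM. Slc22a5, the plasma membrane carnitine importer, averaged 9.39 TPM, and Pdk4, the kinase that shuts off pyruvate dehydrogenase, 3.15 TPM. Without Fabp1, the other 34 genes together took 0.533% ± 0.0849 of the TPM in HFD LFKO, 0.306% ± 0.0483 in HFD LPKO and 0.263% ± 0.0222 in HFD LFPKO, against 0.389% ± 0.0218 in HFD WT livers (SD, n = 3 each). The corresponding shares were 0.564% ± 0.0106 in RD LFKO, 0.335% ± 0.0180 in RD LPKO and 0.332% ± 0.00548 in RD LFPKO, against 0.491% ± 0.0206 in RD WT livers. On each diet, every LPKO and LFPKO library had a smaller share than every WT and LFKO library.

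Many of these genes were lower in livers labelled LPKO than in WT livers on both diets, led by the translocase Slc25a20 and the isomerase Eci2, while Cpt1a, Etfa and Acadm were not called. A gene was called at a limma p under 0.05 after Benjamini-Hochberg adjustment over 10551 genes, and changes are log2 ratios of TPM + 1 with their standard error. In HFD LPKO against HFD WT livers, 10 of 34 genes fell and 0 rose, where 1.13% of all genes fell and 3.6% rose. The median change of the 34 was -0.28, beside 0.11 over all genes, and after scaling 16 genes fell, where the share of all genes was 3.29%. With the HFD LPKO and HFD WT libraries fitted alone, 6 were called. In RD LPKO against RD WT livers, 16 of 34 fell and 1, Pdk4, rose, where 2.33% of all genes fell and 3.52% rose. The median change was -0.41, beside 0.04 over all genes. By role, HFD LPKO livers had lower levels of 0 of 6 entry genes, 2 of 4 shuttle genes, 3 of 8 dehydrogenases, 1 of 6 genes from hydratase to thiolase, 2 of 3 genes for unsaturated fatty acids and 2 of 3 for electron transfer. The counts in RD LPKO livers were 3, 3, 3, 2, 3 and 2 in the same order of roles. In bulk tissue, fewer cells of a type and less RNA per cell cannot be told apart.

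Livers labelled LFPKO also had lower levels of many of these genes than WT livers. In HFD LFPKO against HFD WT livers, 13 of 34 fell and 0 rose, where 1.47% of all genes fell and 1.62% rose, with a median of -0.43. After scaling, 21 fell, beside 3.44% of all genes. In RD LFPKO against RD WT livers, 16 fell and 2, Pdk4 and Acsl4, rose, where 3.45% of all genes fell and 4% rose, with a median of -0.47. These 18 calls numbered 11 without RD LFPKO replicate 3. These comparisons share their WT libraries with those of the LPKO livers. Against LFKO, which lack FoxO1 alone, 26 of 34 fell in HFD LFPKO (8.74% of all genes) and 20 in RD LFPKO livers (3.13% of all genes), and none rose in either. Between LFPKO and LPKO, limma called none of the 34 on either diet, where 0.351% of all genes were called on HFD and 0.123% on RD. On RD, an unadjusted p under 0.05 was found for 1 of the 34, beside 549 of all 10551 genes. On HFD it was found for 5 of the 34, and the count over all genes is not given here. Without HFD LPKO replicate 3, 1 was called on HFD.

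**Figure D1:**
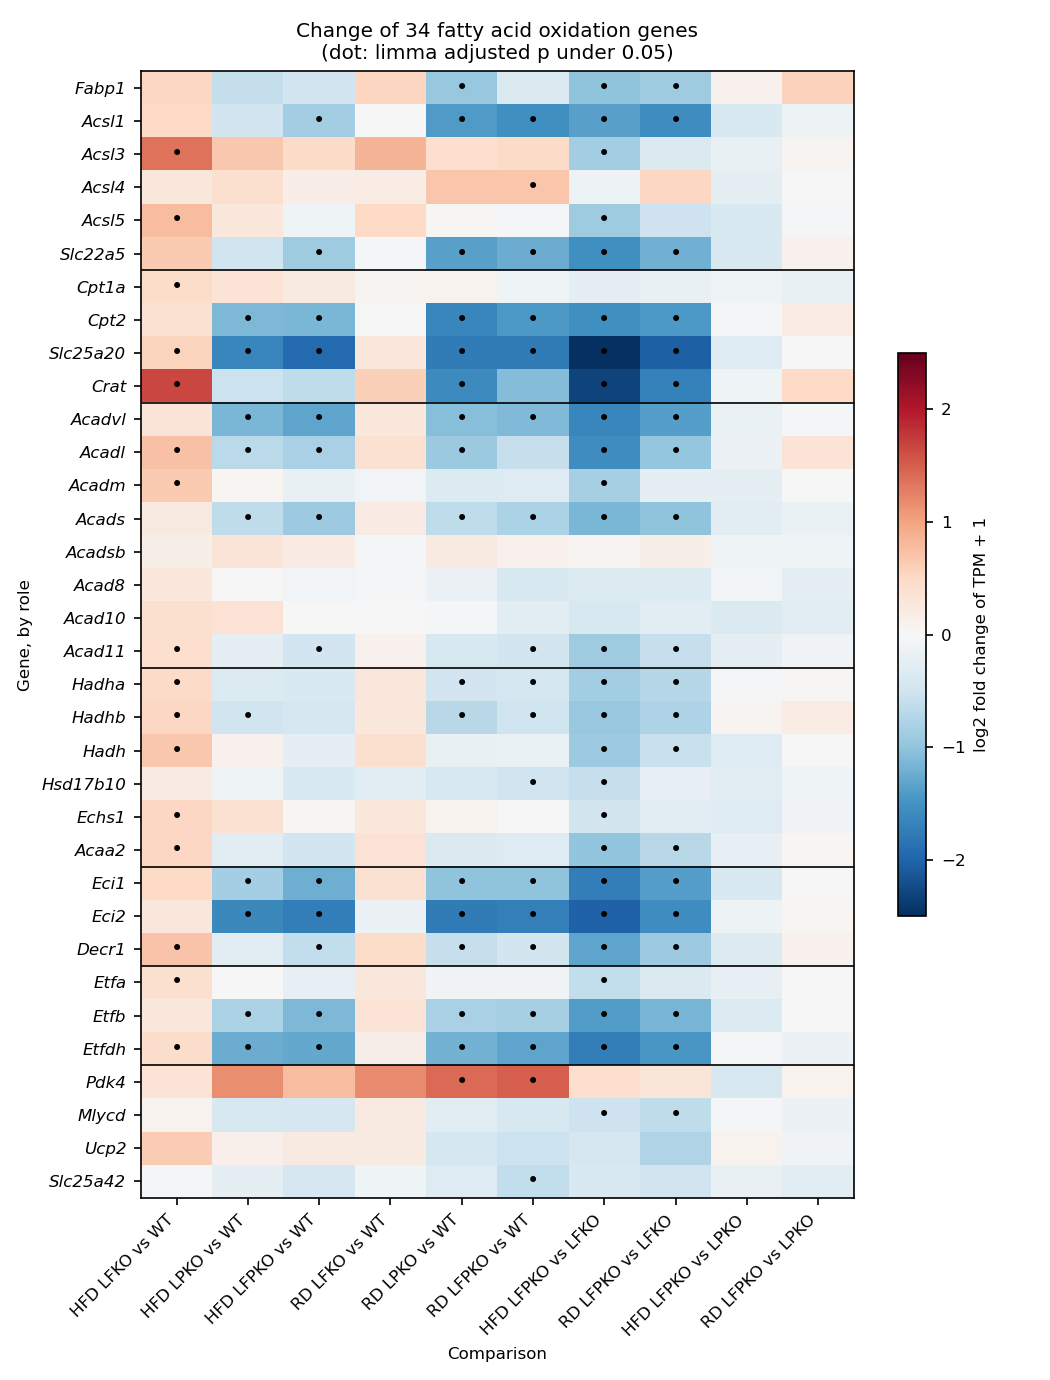
Log2 fold change of TPM + 1 (colour) of the 34 genes tested (rows, grouped by role from uptake at the top to control genes at the bottom) in 10 comparisons between genotypes (columns, HFD before RD within a kind of comparison), with a dot where the limma adjusted p was under 0.05. The columns of LPKO and LFPKO against WT or LFKO are blue for Slc25a20, Cpt2, Eci2, Etfdh and Acadvl, and pale for Cpt1a, Acadsb and Acad8, while the 2 columns of LFPKO against LPKO hold no dot.

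At entry and activation, Acsl1, Slc22a5 and Fabp1 fell in RD LPKO livers, while the other acyl-CoA synthetase genes were not called. Acsl1, which makes acyl-CoA at the outer mitochondrial membrane, had 288, 267 and 228 TPM in HFD LPKO and 245, 173 and 185 TPM in HFD LFPKO, against 413, 409.8 and 279.6 TPM in HFD WT livers. On RD it had 158, 160.2 and 167 TPM in RD LPKO and 141, 168 and 138 TPM in RD LFPKO, against 534, 363 and 413 TPM in RD WT livers. The RD groups were far apart, whereas on HFD the highest LPKO library stood above the lowest WT library, and the change was -0.48 ± 0.17 (adjusted p = 0.106) in HFD LPKO and -1.41 ± 0.17 (adjusted p = 2.51e-05) in RD LPKO livers. Slc22a5 changed by -1.35 ± 0.22 in RD LPKO livers (adjusted p = 0.00058), with 7.23, 5.74 and 5.65 TPM in RD LPKO against 25.4, 13.5 and 14.9 TPM in RD WT livers, which did not overlap. On HFD it had 5.64, 5.25 and 3.49 TPM in HFD LPKO and 2.76, 3.88 and 3.55 TPM in HFD LFPKO, against 6.72, 7.22 and 7.31 TPM in HFD WT livers, and fell in HFD LFPKO livers (-0.89 ± 0.22, adjusted p = 0.0273). Slc22a21 is a close relative of Slc22a5, so reads shared between them could be split either way.

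Acsl5, another long-chain synthetase, changed by 0.27 ± 0.20 (adjusted p = 0.503) in HFD LPKO and 0.03 ± 0.20 (adjusted p = 0.966) in RD LPKO livers, neither called. Acsl5 overlaps Zdhhc6 on the opposite strand, and whether reads were counted by strand is not given. Within libraries, the ratio of Acsl1 to Acsl5 was 0.730, 0.709 and 0.608 in RD LPKO and 0.661, 0.801 and 0.508 in RD LFPKO, against 2.72, 1.40 and 1.67 in RD WT livers. Acsl4, which prefers arachidonic acid, rose in RD LFPKO livers (0.70 ± 0.21, adjusted p = 0.0497), a call lost after scaling (adjusted p = 0.0589). Acsl3 was not called in any comparison of LPKO or LFPKO with WT.

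Fabp1 (chr6:71199827-71205023 in GRCm38, plus strand) had 7822, 7274 and 4341 TPM in HFD LPKO, against 9748, 9116 and 9649 TPM in HFD WT livers, and 5678, 4453 and 5248 TPM in RD LPKO, against 8689, 10854 and 9888 TPM in RD WT livers. The groups did not overlap on either diet, and the change was -0.60 ± 0.19 (adjusted p = 0.0721, and 0.00675 after scaling) on HFD and -0.94 ± 0.19 (adjusted p = 0.00408) on RD. Its promoter is shown because, of the 33 promoter windows of 32 matched genes, it alone held the DR1 motif, the nuclear receptor half-site AGGNCA, any 1 base and AGGNCA again, the form PPARα and RXR are known to bind. The sequence comes from RefSeq (GRCm38.p6), chr6:71199629-71199826, plus strand, read 5′ to 3′, and capitals mark half-sites on either strand.
Fabp1: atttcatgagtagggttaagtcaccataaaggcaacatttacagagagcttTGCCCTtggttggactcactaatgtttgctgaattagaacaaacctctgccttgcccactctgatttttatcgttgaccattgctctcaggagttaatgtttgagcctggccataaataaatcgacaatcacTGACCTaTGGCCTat
The motif stood at chr6:71199812-71199824, on the minus strand. Over 250 bases before each start, DR1 was found in 0.338% of all 32851 promoters and the half-site alone in 51.3%, against 57.6% of the members' windows. The FoxO core TGTTTNC was in 17.8% of all promoters and in 2 of the 33 windows, those of Acsl1 and Fabp1. Both strands were searched, and the half-site count includes those within a DR1. A match is a description of letters, not a binding site.

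In the carnitine shuttle, the inner membrane genes Slc25a20 and Cpt2 fell on both diets, and Cpt1a was not called. Slc25a20 (chr9:108662088-108684641, plus strand), the carnitine-acylcarnitine translocase gene, had 16.9, 24.7 and 13.0 TPM in HFD LPKO and 13.3, 13.6 and 14.9 TPM in HFD LFPKO, against 57.3, 56.0 and 56.8 TPM in HFD WT livers. On RD it had 24.6, 22.7 and 23.6 TPM in RD LPKO and 27.9, 22.8 and 20.7 TPM in RD LFPKO, against 97.4, 75.0 and 75.2 TPM in RD WT livers. All 12 libraries labelled LPKO or LFPKO lay below all 12 others, with changes of -1.63 ± 0.17 (adjusted p = 4.20e-06) in HFD LPKO and -1.75 ± 0.17 (adjusted p = 1.68e-06) in RD LPKO livers. Set against LFKO, the change was -2.51 ± 0.17 (adjusted p = 5.42e-09) in HFD LFPKO and -2.04 ± 0.17 (adjusted p = 1.68e-07) in RD LFPKO livers.

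Cpt2 (chr4:107903981-107923610, minus strand), the inner membrane transferase gene, had 38.9, 37.6 and 25.9 TPM in HFD LPKO and 29.5, 36.0 and 33.6 TPM in HFD LFPKO, against 85.1, 71.8 and 67.3 TPM in HFD WT livers. The RD values were 34.7, 26.7 and 29.9 TPM in RD LPKO and 34.2, 34.4 and 35.6 TPM in RD LFPKO, against 115, 83.5 and 90.0 TPM in RD WT livers. The groups did not overlap on either diet, with changes of -1.12 ± 0.16 (adjusted p = 0.000226) in HFD LPKO and -1.63 ± 0.16 (adjusted p = 1.93e-06) in RD LPKO livers. Crat, the carnitine acetyltransferase of the matrix, fell in RD LPKO livers (-1.59 ± 0.37, adjusted p = 0.0108). It had 9.35, 7.39 and 6.98 TPM in RD LPKO, against 50.6, 16.2 and 20.5 TPM in RD WT livers, which did not overlap, with WT replicate 1 far above the other WT libraries. Its change in RD LFPKO livers, -1.09 ± 0.37, was not called (adjusted p = 0.0761). Crat overlaps Dolpp1 on the opposite strand.

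Cpt1a (chr19:3322334-3385733, plus strand), the gene of the rate-controlling step, had 161, 144 and 122 TPM in HFD LPKO and 117, 134 and 144 TPM in HFD LFPKO, against 121, 109 and 107 TPM in HFD WT livers. On RD it had 172, 143 and 155 TPM in RD LPKO and 133, 140.2 and 137 TPM in RD LFPKO, against 162, 152 and 129 TPM in RD WT livers. LPKO libraries lay above all WT libraries on HFD and among them on RD, and the changes, 0.33 ± 0.12 (adjusted p = 0.102) in HFD LPKO and 0.08 ± 0.12 (adjusted p = 0.771) in RD LPKO livers, were not called. The promoters of Slc25a20 (chr9:108661886-108662087, plus strand) and Cpt1a (chr19:3323051-3323284, plus strand) are shown as those of neighbouring steps that differed in response, again from RefSeq (GRCm38.p6) with half-sites in capitals and cut where an annotated exon begins. The Cpt1a window precedes the start given by RefSeq, which lies inside the annotated gene, downstream of its first base at 3322334.
Slc25a20: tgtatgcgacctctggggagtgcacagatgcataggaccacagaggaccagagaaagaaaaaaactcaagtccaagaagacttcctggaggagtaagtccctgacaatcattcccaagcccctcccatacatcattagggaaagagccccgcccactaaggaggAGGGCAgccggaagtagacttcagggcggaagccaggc
Cpt1a: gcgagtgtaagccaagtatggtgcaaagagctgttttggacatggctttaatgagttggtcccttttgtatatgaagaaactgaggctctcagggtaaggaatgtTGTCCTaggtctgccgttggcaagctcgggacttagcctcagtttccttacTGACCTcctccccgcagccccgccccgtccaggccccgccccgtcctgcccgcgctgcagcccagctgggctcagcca
Slc25a20 held 1 half-site and Cpt1a held 2, and neither held a DR1 or a FoxO core.

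**Figure D2:**
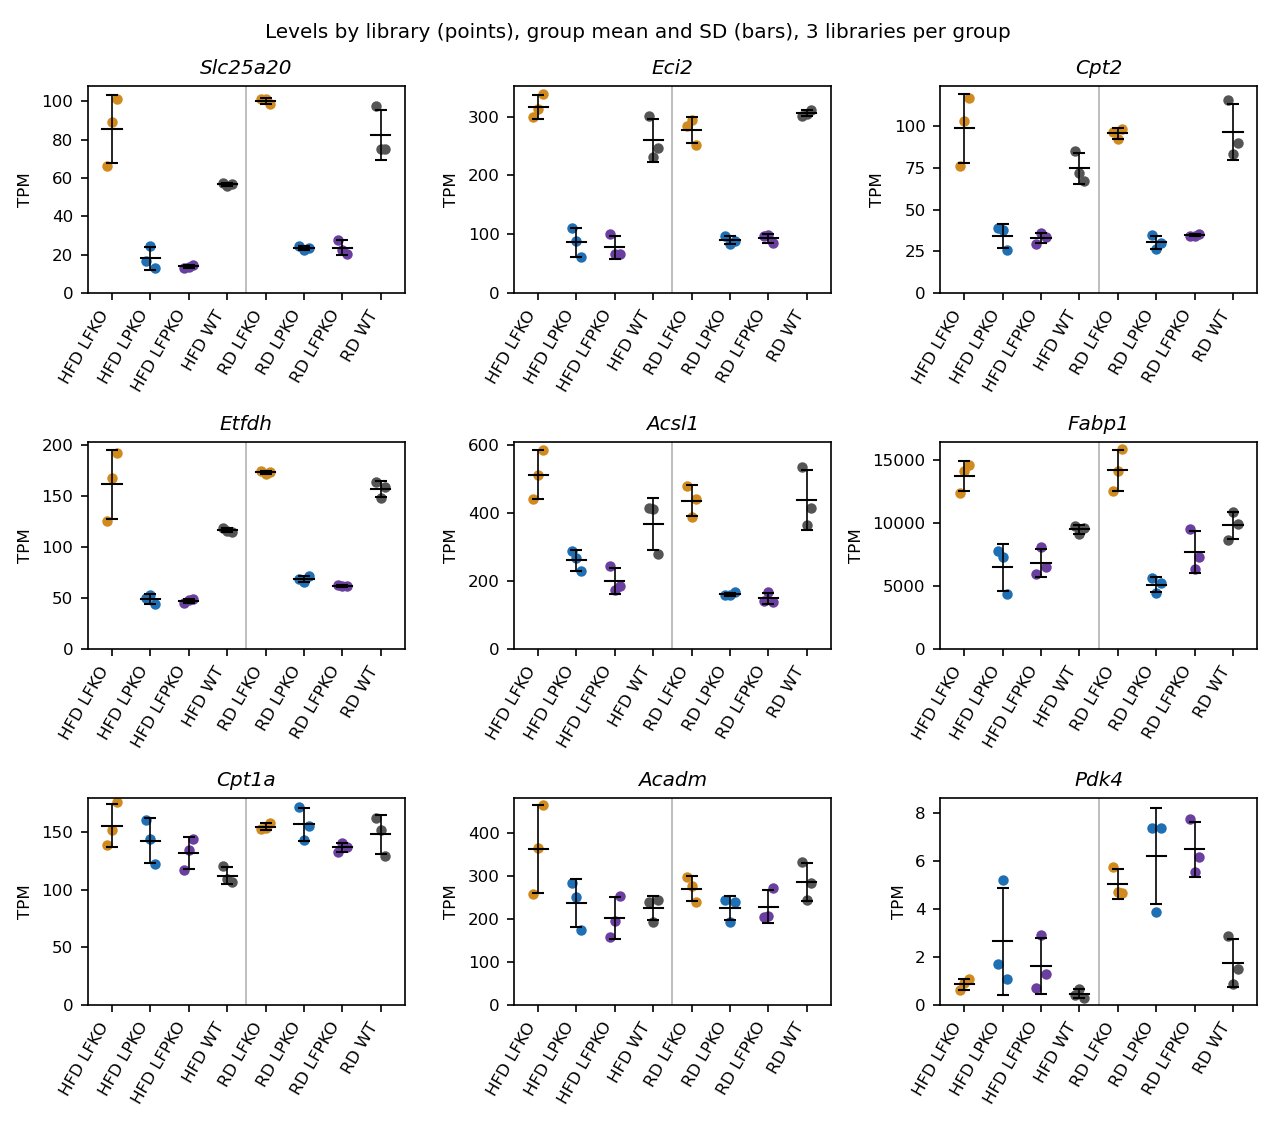
TPM of 9 genes in each library (points, coloured by genotype), with the mean and SD of 3 libraries (bars), for the 4 HFD groups left of the 4 RD groups and WT last within each diet. For Slc25a20, Eci2, Cpt2 and Etfdh, the LPKO and LFPKO points lie below all LFKO and WT points on both diets, while those of Cpt1a and Acadm overlap with them and those of Pdk4 lie above RD WT on RD.

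Among the acyl-CoA dehydrogenases, which take chains of different lengths, Acadvl, Acadl and Acads fell in LPKO livers on both diets and Acadm was not called. Acadvl (chr11:70010183-70015411, minus strand), for very long chains, had 78.4, 72.9 and 55.1 TPM in HFD LPKO, against 159, 141 and 156 TPM in HFD WT livers, and 96.5, 85.5 and 91.0 TPM in RD LPKO, against 194, 184 and 194 TPM in RD WT livers. The groups did not overlap, and the change was -1.15 ± 0.13 (adjusted p = 7.29e-06) on HFD and -1.06 ± 0.13 (adjusted p = 2.56e-05) on RD. Acadvl overlaps Dvl2 on the opposite strand. Acads, for short chains, fell, with changes of -0.64 ± 0.14 (adjusted p = 0.0126) in HFD LPKO and -0.63 ± 0.14 (adjusted p = 0.0105) in RD LPKO livers. Acadl, for long chains, changed by -0.67 ± 0.18 (adjusted p = 0.0338) and -0.92 ± 0.18 (adjusted p = 0.00284) in the same comparisons. In RD LFPKO livers the Acadl change of -0.58 ± 0.18 was called only after scaling (adjusted p = 0.0523 as deposited and 0.0207 after scaling).

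Acadm, the medium-chain gene and the most abundant of these dehydrogenases, had 284, 251 and 175 TPM in HFD LPKO, against 239, 194 and 244 TPM in HFD WT livers, and 244, 194 and 241 TPM in RD LPKO, against 332, 244 and 283 TPM in RD WT livers. The HFD groups overlapped and the highest RD LPKO library lay just under the lowest RD WT library, with changes of 0.05 ± 0.21 (adjusted p = 0.939) and -0.34 ± 0.21 (adjusted p = 0.43). Acadsb and Acad8, which act on isoleucine and valine breakdown products, changed by 0.32 ± 0.10 and -0.02 ± 0.12 in HFD LPKO and by 0.22 ± 0.10 and -0.15 ± 0.12 in RD LPKO livers, none of them called, and Acadsb overlaps Fgfr2 on the opposite strand. Acad10, a dehydrogenase gene of less known substrate, was not called in any comparison of LPKO or LFPKO with WT. Acad11 fell in LFPKO livers, with changes of -0.47 ± 0.13 (adjusted p = 0.0443) on HFD and -0.48 ± 0.13 (adjusted p = 0.0243) on RD.

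In the later steps of the cycle, both subunit genes of the trifunctional protein, which handles long chains, fell in RD LPKO livers, and the genes of the separate short-chain enzymes were not called. Hadhb had 109, 79.1 and 67.6 TPM in HFD LPKO, against 123, 109.9 and 121 TPM in HFD WT livers, and 92.0, 84.4 and 93.6 TPM in RD LPKO, against 149, 145 and 143 TPM in RD WT livers. Each pair of groups was separate, by little on HFD, with changes of -0.49 ± 0.12 (adjusted p = 0.023) and -0.69 ± 0.12 (adjusted p = 0.00129). Hadha changed by -0.34 ± 0.12 (adjusted p = 0.116, and 0.00212 after scaling) in HFD LPKO and by -0.48 ± 0.12 (adjusted p = 0.0265) in RD LPKO livers. The subunits' ratio, Hadha over Hadhb, overlapped between the 12 libraries labelled LPKO or LFPKO (1.03 to 1.38) and the 12 others (0.942 to 1.19). On RD it was 1.25, 1.38 and 1.22 in RD LPKO, against 1.10, 1.05 and 1.17 in RD WT livers, which did not overlap. On HFD it was 1.06, 1.24 and 1.21 in HFD LPKO, against 1.15, 1.04 and 0.976 in HFD WT livers, which overlapped. Hadha (chr5:30118304-30155162, minus strand) and Hadhb (chr5:30155248-30184593, plus strand) lie head to head with annotated starts 86 bases apart, and the 85 bases between them (chr5:30155163-30155247, shown on the plus strand, RefSeq, GRCm38.p6) lie upstream of both.
Hadha and Hadhb: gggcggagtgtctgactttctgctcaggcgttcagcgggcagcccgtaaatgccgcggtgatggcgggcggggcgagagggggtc
No half-site lies between the starts, so no letter is in capitals. The full windows of 250 bases held 1 half-site for Hadha and 1 for Hadhb, outside the stretch shown.

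Echs1, the short-chain hydratase, changed by 0.39 ± 0.15 (adjusted p = 0.128) in HFD LPKO and 0.09 ± 0.15 (adjusted p = 0.8) in RD LPKO livers, with 165, 158 and 176 TPM in RD LPKO and 137, 171 and 161 TPM in RD WT livers, where the groups overlapped. The gene overlaps Paox on the opposite strand. Hadh, the short-chain hydroxyacyl-CoA dehydrogenase, changed by 0.11 ± 0.16 (adjusted p = 0.781) and -0.18 ± 0.16 (adjusted p = 0.623). Acaa2, the thiolase, had 505, 437 and 487 TPM in RD LPKO, against 604, 631 and 605 TPM in RD WT livers, and was called only after scaling (-0.37 ± 0.14, adjusted p = 0.129, and 0.00695 after scaling). Its RD groups did not overlap. Hsd17b10, which acts in isoleucine breakdown and in mitochondrial tRNA processing, fell in RD LFPKO livers (-0.49 ± 0.14, adjusted p = 0.0351).

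All 3 genes for unsaturated fatty acids fell in RD LPKO livers, in RD LFPKO livers and in HFD LFPKO livers. Eci2 (chr13:34977748-35027096, minus strand), an enoyl-CoA isomerase gene whose product is also found in peroxisomes, had 110.0, 88.1 and 61.0 TPM in HFD LPKO and 101, 67.1 and 66.8 TPM in HFD LFPKO, against 300.5, 231 and 246 TPM in HFD WT livers. Its RD values were 97.5, 83.5 and 89.1 TPM in RD LPKO and 97.1, 98.6 and 84.9 TPM in RD LFPKO, against 301, 305 and 311 TPM in RD WT livers. The gap was the widest among the 34 genes: the lowest of the 12 libraries of WT and LFKO stood 2.10-fold above the highest of the 12 labelled LPKO or LFPKO. The change was -1.61 ± 0.17 (adjusted p = 4.20e-06) in HFD LPKO and -1.76 ± 0.17 (adjusted p = 1.54e-06) in RD LPKO livers. Eci3 is a close relative of Eci2, so the split of shared reads is uncertain.

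Eci1, the other mitochondrial isomerase gene, fell, with changes of -0.85 ± 0.17 (adjusted p = 0.0041) in HFD LPKO and -1.0 ± 0.17 (adjusted p = 0.000678) in RD LPKO livers. Decr1, the dienoyl-CoA reductase, had 53.5, 48.3 and 37.8 TPM in HFD LPKO, against 59.3, 52.3 and 57.4 TPM in HFD WT livers, and 55.9, 48.6 and 57.5 TPM in RD LPKO, against 84.7, 82.1 and 76.0 TPM in RD WT livers. The groups overlapped on HFD and were separate on RD, where Decr1 fell with a change of -0.58 ± 0.13 (adjusted p = 0.0111). On HFD the change of -0.28 ± 0.13 was called after scaling only (adjusted p = 0.238 as deposited and 0.0083 after scaling).

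The electron transfer genes parted in LPKO against WT livers: Etfb and Etfdh fell and Etfa was not called, although Etfa and Etfb encode the subunits of the same flavoprotein. Etfb had 180.1, 149 and 109.8 TPM in HFD LPKO, against 239, 249 and 258 TPM in HFD WT livers, and 181, 173 and 194 TPM in RD LPKO, against 329, 318 and 319 TPM in RD WT livers. Etfa had 236, 204 and 163 TPM in HFD LPKO, against 216, 174 and 213 TPM in HFD WT livers, and 242, 237 and 256 TPM in RD LPKO, against 266, 264 and 255 TPM in RD WT livers. The Etfb groups were separate on both diets, with changes of -0.79 ± 0.15 (adjusted p = 0.00403) and -0.82 ± 0.15 (adjusted p = 0.00216), whereas the Etfa groups overlapped, with changes of -0.01 ± 0.12 (adjusted p = 0.981) and -0.10 ± 0.12 (adjusted p = 0.735). In RD LPKO livers Etfb stood below Etfa in all 3 libraries, and in RD WT livers it stood above Etfa in all 3. Etfa did fall in HFD LFPKO against HFD LFKO livers (-0.61 ± 0.12, adjusted p = 0.00154), where Etfb and Etfdh changed by -1.40 ± 0.15 and -1.73 ± 0.11. In HFD LFPKO against HFD WT livers it was called after scaling only (-0.21 ± 0.12, adjusted p = 0.449, and 0.0426 after scaling), as it was in RD LFPKO against RD LFKO livers (-0.37 ± 0.12, adjusted p = 0.0759, and 0.0191 after scaling).

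Etfdh (chr3:79603788-79629500, minus strand), for the membrane oxidoreductase that receives these electrons, fell, with changes of -1.23 ± 0.11 (adjusted p = 5.24e-07) in HFD LPKO and -1.18 ± 0.11 (adjusted p = 1.02e-06) in RD LPKO livers. It had 49.7, 53.4 and 44.2 TPM in HFD LPKO and 45.1, 48.0 and 48.6 TPM in HFD LFPKO, against 118, 116 and 114 TPM in HFD WT livers. The replicates of each of these groups lay close together and the groups did not overlap. The promoters of Etfb (chr7:43443822-43444071, plus strand) and Etfa (chr9:55512244-55512493, minus strand) are shown for that contrast, from RefSeq (GRCm38.p6) with half-sites in capitals.
Etfb: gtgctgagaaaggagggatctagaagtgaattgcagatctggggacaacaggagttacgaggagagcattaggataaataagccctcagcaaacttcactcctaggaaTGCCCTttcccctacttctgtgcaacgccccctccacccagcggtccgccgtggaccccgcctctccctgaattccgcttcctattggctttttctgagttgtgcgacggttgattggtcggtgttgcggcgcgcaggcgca
Etfa: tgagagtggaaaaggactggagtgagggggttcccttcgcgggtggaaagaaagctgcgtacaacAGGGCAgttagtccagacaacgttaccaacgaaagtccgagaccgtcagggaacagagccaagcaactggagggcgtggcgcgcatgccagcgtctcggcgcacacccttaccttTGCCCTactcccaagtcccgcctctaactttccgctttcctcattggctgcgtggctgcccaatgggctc
Etfb held 1 half-site and Etfa held 2, and neither held a DR1 or a FoxO core.

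Because TPM is a share, a ratio of 2 genes within a library does not depend on how the library was scaled, and pairs of neighbouring steps were compared this way with no test, as the pairs were picked with the results known. Etfb over Etfa was 0.630 to 0.848 in the 12 libraries labelled LPKO or LFPKO, against 0.996 to 1.43 in the 12 others. Etfdh over Etfa was 0.211 to 0.292 in the LPKO and LFPKO libraries, against 0.518 to 0.668 in the others. Cpt2 over Cpt1a was 0.187 to 0.268, against 0.548 to 0.711, and Slc25a20 over Cpt1a was 0.102 to 0.210, against 0.475 to 0.662, in the same order of groups. Acadvl over Acadm was 0.270 to 0.443 in the LPKO and LFPKO libraries, against 0.480 to 0.958 in the others. These 5 ratios separated the libraries by PPARα label on both diets, with or without FoxO1. Those of Hadha to Hadhb, Hadha to Echs1, Eci2 to Eci1 and Acsl1 to Acsl5 overlapped over both diets together. On RD alone, Acsl1 over Acsl5 did separate by that label (at most 0.801, against at least 1.22). There Hadha over Echs1 (0.867 against 0.885) and Eci2 over Eci1 (1.601 against 1.612) did so by little.

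**Figure D3:**
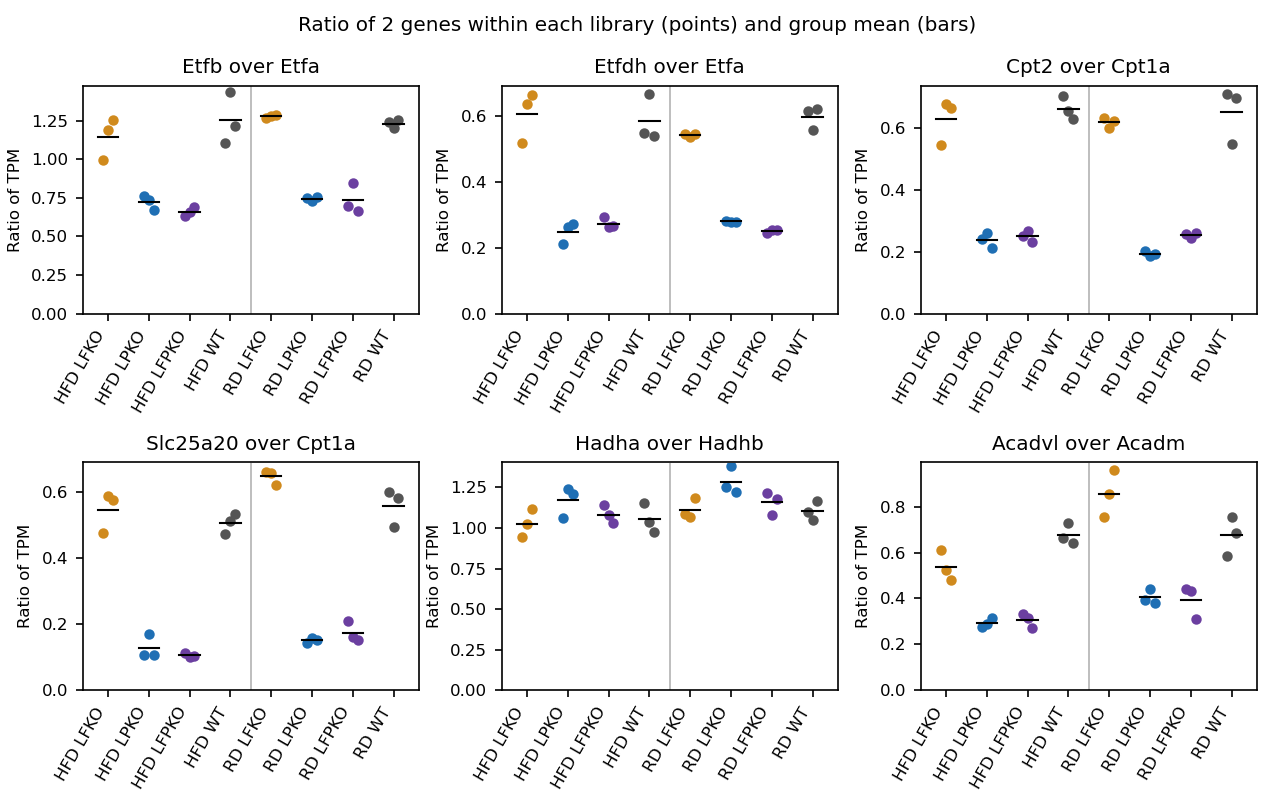
Ratio of the TPM of 2 genes within each library (points) and the group mean (bars), for the 4 HFD groups left of the 4 RD groups and WT last within each diet. For Etfb over Etfa, Etfdh over Etfa, Cpt2 over Cpt1a, Slc25a20 over Cpt1a and Acadvl over Acadm, all LPKO and LFPKO points lie below all LFKO and WT points, whereas Hadha over Hadhb overlaps.

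Over all 12 libraries labelled LPKO or LFPKO, 9 of the 34 genes were lower in each of them than in each of the 12 WT and LFKO libraries, and none was higher in each. They were Eci2, Slc25a20, Cpt2, Etfdh, Acadvl, Eci1, Etfb, Acads and Hadhb, in falling order of the gap. Such separation was found for 0.635% of all genes in the lower and 0.123% in the higher direction. After scaling, Acsl1, Acadl, Acad11, Hadha, Acaa2 and Decr1 joined them, which made 15 of 34, beside 1.18% of all genes.

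Of the control genes, Pdk4 moved the other way. It had 7.38, 3.89 and 7.38 TPM in RD LPKO and 7.76, 5.54 and 6.17 TPM in RD LFPKO, against 2.88, 0.884 and 1.53 TPM in RD WT livers, and rose in both, with changes of 1.41 ± 0.34 (adjusted p = 0.0155) and 1.49 ± 0.34 (adjusted p = 0.00914). The RD groups did not overlap. RD LFKO livers, with PPARα intact by their label, also had high values (5.77, 4.72 and 4.66 TPM), and RD LFPKO against RD LFKO livers gave 0.30 ± 0.34, not called (adjusted p = 0.73). On HFD it had 1.70, 5.22 and 1.07 TPM in HFD LPKO, against 0.437, 0.675 and 0.306 TPM in HFD WT livers, again without overlap, and its change of 1.16 ± 0.34 was not called (adjusted p = 0.0543). Mlycd, which breaks down the Cpt1a inhibitor malonyl-CoA, was not called in LPKO livers as deposited, with changes of -0.40 ± 0.15 on HFD and -0.26 ± 0.15 on RD, and fell in LFPKO against LFKO livers, with changes of -0.52 ± 0.15 (adjusted p = 0.0292, and 0.0899 after scaling) on HFD and -0.63 ± 0.15 (adjusted p = 0.0153) on RD. Slc25a42, a mitochondrial CoA carrier gene, fell in RD LFPKO livers (-0.61 ± 0.16, adjusted p = 0.0205). Ucp2, a carrier of the mitochondrial inner membrane, was not called in any of the 19 comparisons.

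In livers lacking FoxO1 alone, part of the pathway was higher on HFD, a result that depended on scaling and on single libraries. In HFD LFKO against HFD WT livers, 16 of 34 genes rose and 0 fell, where 12.7% of all genes rose and 0.73% fell. The median of the 34 was 0.47, beside 0.21 over all genes. The genes that rose included 3 of 4 shuttle genes (Cpt1a, Slc25a20 and Crat) and 5 of 6 from hydratase to thiolase (Hadha, Hadhb, Hadh, Echs1 and Acaa2), and 0 of 4 control genes. After scaling the median was 0.23, beside -0.01, and 4 genes rose, Acsl3, Crat, Hadh and Decr1, beside 2.23% of all genes. The calls numbered 25 without HFD LFKO replicate 1, 2 without replicate 2, 2 without replicate 3 and 3 without HFD WT replicate 2. Urinary protein and mitochondrially encoded transcripts took 41.1%, 33.1% and 28.4% of the TPM in the HFD LFKO libraries, against 43.4%, 49.8% and 42.3% in those of HFD WT. With these transcripts left out and the libraries rescaled, 4 of the 34 genes were called. The cause of the result was not tested.

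Decr1 had 74.3, 95.3 and 112 TPM in HFD LFKO, against 59.3, 52.3 and 57.4 TPM in HFD WT livers, with a change of 0.71 ± 0.13 (adjusted p = 0.00365, and 0.00796 after scaling). Acsl3 had 11.6, 16.7 and 14.7 TPM in HFD LFKO, against 5.53, 3.71 and 5.66 TPM in HFD WT livers, with a change of 1.36 ± 0.24 (adjusted p = 0.00284). Crat had 14.5, 38.8 and 44.5 TPM in HFD LFKO, against 11.2, 8.08 and 6.78 TPM in HFD WT livers, with a change of 1.67 ± 0.37 (adjusted p = 0.00879). None of these groups overlapped, and HFD LFKO replicate 1 was the lowest of its group for each. Hadh changed by 0.68 ± 0.16 (adjusted p = 0.0124) and Fabp1 by 0.53 ± 0.19 (adjusted p = 0.0676). The Fabp1 change was not called, although its groups were separate, with 12389, 14146 and 14630.4 TPM in HFD LFKO against 9748, 9116 and 9649 TPM in HFD WT livers.

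In RD LFKO against RD WT livers, limma called none of the 34, where 1.67% of all genes were called. At an unadjusted p under 0.05, 14 of the 34 stood beside 1637 of all 10551 genes. The median was 0.25, beside 0.03 over all genes, and 18 genes had every LFKO library above every WT library, where 19.4% of all genes did. In 2 genes every LFKO library lay below, where 7.43% of all genes did. Genes of other mitochondrial lists were placed alike: 15 of 17 citric acid cycle genes (median 0.24) and 10 of 16 import genes (median 0.20) had every LFKO library above every WT library. The smallest adjusted p of the 34 was that of Pdk4, with 5.77, 4.72 and 4.66 TPM in RD LFKO, against 2.88, 0.884 and 1.53 TPM in RD WT livers, which did not overlap (1.19 ± 0.34, adjusted p = 0.0832). After scaling, Acsl3, Acaa2 and Decr1 rose, beside 2.5% of all genes. Decr1 had 114, 109 and 109.6 TPM in RD LFKO, against 84.7, 82.1 and 76.0 TPM in RD WT livers, and changed by 0.45 ± 0.13 (adjusted p = 0.0931, and 0.0149 after scaling). With the RD LFKO and RD WT libraries fitted alone, 8 of the 34 were called. The LFKO effect was not called as different between diets for any of the 34 genes in limma, where 0.00948% of all genes were called. At an unadjusted p under 0.05, a looser measure than a call, 4 of the 34 were found, and the count over all genes is not given here.

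On HFD, the LFPKO livers lay below the sum of the effects seen in the single knockouts for part of the pathway. The term is the LFPKO change minus the LFKO and LPKO changes, all against WT, and it was negative and called for 16 of 34 genes, where 10.5% of all genes were called in that direction. The median of the 34 was -0.60, beside -0.24 over all genes, and after scaling -0.31, beside 0.01. Decr1 had the smallest adjusted p (-1.04 ± 0.19, adjusted p = 0.00278): its changes were 0.71 ± 0.13 in LFKO, -0.28 ± 0.13 in LPKO and -0.62 ± 0.13 in LFPKO livers. After scaling the count was 6, with Acsl3, Acsl5, Hadh, Echs1, Eci1 and Decr1, beside 3.76% of all genes. Leaving out single libraries gave 4 without HFD WT replicate 2, 6 without HFD LFKO replicate 2, 4 without HFD LFKO replicate 3, 6 without HFD LPKO replicate 1 or replicate 2, 6 without HFD LFPKO replicate 1 and 26 without HFD LPKO replicate 3. The same term on RD was called by limma for none of the 34, where 0.256% of all genes were called. An unadjusted p under 0.05 was found for 2 of the 34, with no count over all genes beside it.

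The high-fat diet itself gave lower TPM for many members, as it did for other genes. In WT livers on HFD against RD, 14 of 34 fell and 0 rose, where 29.8% of all genes fell and 1.05% rose. The median of the 34, -0.37, lay near that of all genes, -0.29. After scaling, the only call was Slc22a5, which had 6.72, 7.22 and 7.31 TPM in HFD WT, against 25.4, 13.5 and 14.9 TPM in RD WT livers, with no overlap (-1.18 ± 0.22, adjusted p = 0.00151, and 0.0203 after scaling). The 14 calls numbered 9 without RD WT replicate 2 or replicate 3 and 4 without HFD WT replicate 2.

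In the knockouts, the diet calls were 2 lower and 0 higher in LFKO (8.34% of all genes lower), 5 lower and 1 higher in LPKO (17.3% lower and 0.777% higher) and 16 lower and 0 higher in LFPKO livers (24.9% lower). The LFKO calls numbered 1 without RD LFKO replicate 3 or HFD LFKO replicate 1 and 7 without HFD LFKO replicate 3. The LPKO calls numbered 3 without RD LPKO replicate 1, and the LFPKO calls 8 without HFD LFPKO replicate 1. The gene that rose in LPKO livers was Acsl1, with 288, 267 and 228 TPM in HFD LPKO, against 158, 160.2 and 167 TPM in RD LPKO livers, which did not overlap (0.68 ± 0.17, adjusted p = 0.0113). After scaling it rose by 0.93 in LPKO (adjusted p = 0.00749) and by 0.68 in LFPKO livers (adjusted p = 0.0274). Pdk4 fell in LFKO livers, with 0.632, 0.923 and 1.08 TPM in HFD LFKO, against 5.77, 4.72 and 4.66 TPM in RD LFKO livers, which lay far apart (-1.69 ± 0.34, adjusted p = 0.00487). Pdk4 also fell on HFD in LPKO and LFPKO livers, with changes of -1.10 ± 0.34 (adjusted p = 0.0327, and 0.117 after scaling) in LPKO and -1.58 ± 0.34 (adjusted p = 0.00259) in LFPKO livers. Mlycd fell on HFD in all 4 genotypes, with changes of -0.64 ± 0.15 in LFKO, -0.66 ± 0.15 in LPKO, -0.53 ± 0.15 in LFPKO and -0.52 ± 0.15 in WT livers, and after scaling it was called in LFKO livers only (adjusted p = 0.0217). The LPKO and LFPKO effects were not called as different between diets for any of the 34 in limma, where 0.171% and 0.0284% of all genes were called. At an unadjusted p under 0.05, a looser measure than a call, 3 and 1 of the 34 were found, again without the counts over all genes.

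**Figure D4:**
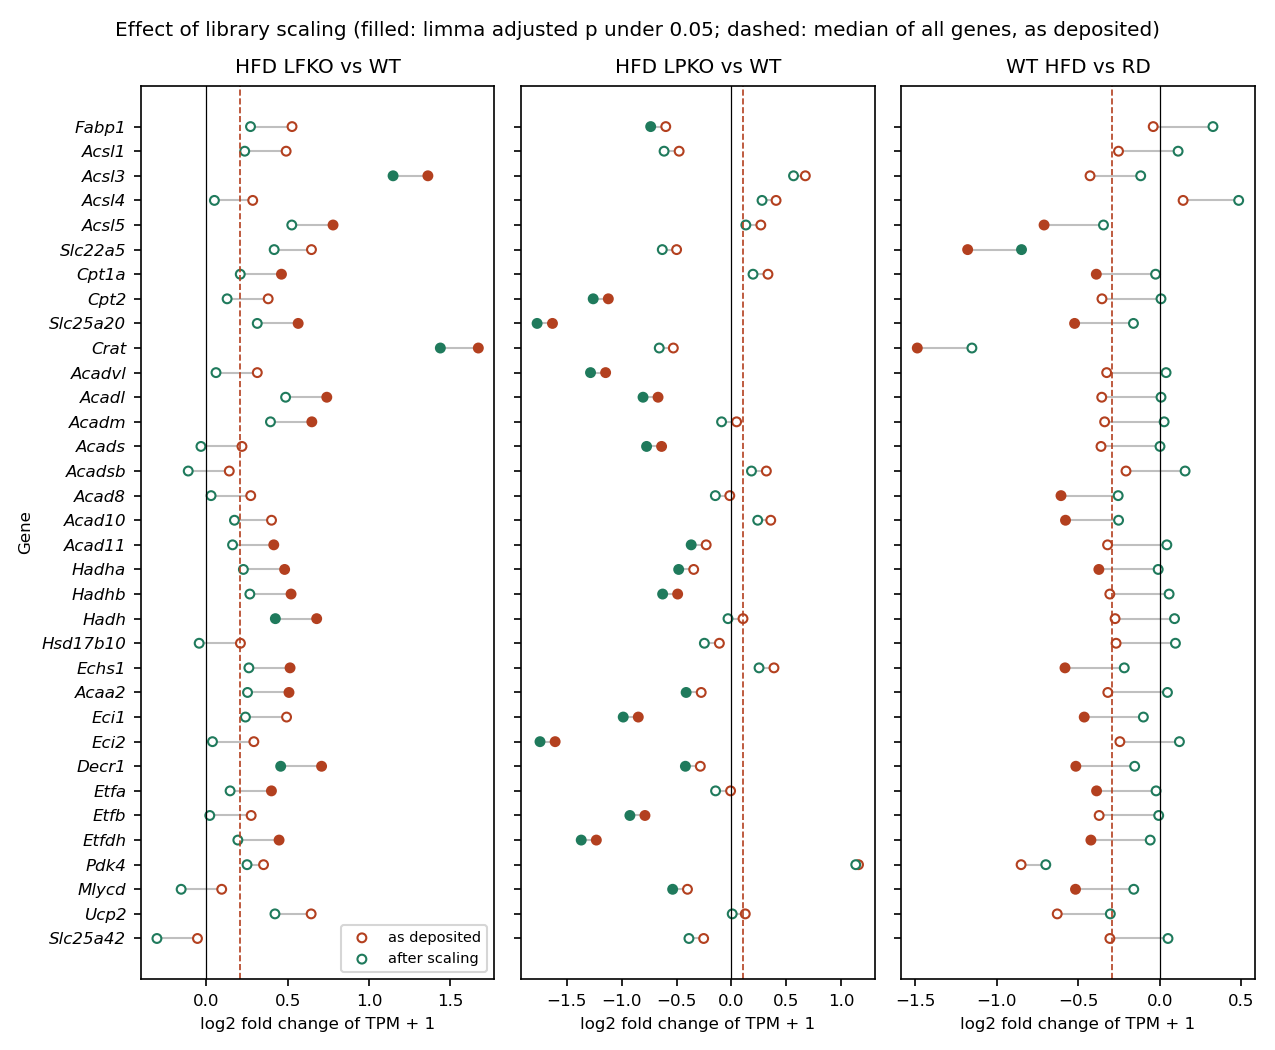
Log2 fold change of TPM + 1 of the 34 genes (rows) in HFD LFKO against HFD WT, in HFD LPKO against HFD WT and in WT livers on HFD against RD, as deposited and after median-of-ratios scaling (2 points joined by a line), filled where the limma adjusted p was under 0.05, with a dashed line at the median of all genes as deposited. Scaling moved most LFKO and diet changes toward 0 and left 4 and 1 filled points, while the LPKO changes moved further from 0 for the genes that fell, from Slc25a20 and Eci2 to Hadhb.

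Other lists of genes around the pathway were read in the same fits. Of 18 genes of peroxisomal β-oxidation, 4 fell in HFD LPKO and 9 in RD LPKO livers, and none rose. Among them, the dienoyl-CoA reductase gene Decr2 changed by -1.88 ± 0.15 (adjusted p = 1.79e-07) in HFD LPKO and -1.78 ± 0.15 (adjusted p = 3.84e-07) in RD LPKO livers. The dienoyl-CoA isomerase gene Ech1 changed by -1.15 ± 0.19 in HFD LPKO and -1.39 ± 0.19 in RD LPKO livers, both called. Of 17 genes of the citric acid cycle, limma called none in LPKO against WT livers, with 3 at an unadjusted p under 0.05 on HFD and 3 on RD, and medians of 0.14 and 0.16. Of 16 genes of mitochondrial import and membranes, limma likewise called none, with 3 and 4 at an unadjusted p under 0.05, and medians of 0.08 and 0.12. Over all 10551 genes, 2091 on HFD and 1984 on RD had an unadjusted p under 0.05, with medians of 0.11 and 0.04. In LFPKO against LFKO livers these lists did hold calls: 10 of 17 cycle genes fell on HFD (6 after scaling) and 2 on RD, and 7 of 16 import genes fell on HFD (4 after scaling) and 2 on RD, where 1 rose. The peroxisomal list had 12 of 18 lower on HFD and 11 on RD in that comparison. Of all genes, 8.74% fell there on HFD and 3.13% on RD as deposited, and the shares after scaling are not given here. In HFD LFKO against HFD WT livers, 7 of 18 peroxisomal, 6 of 17 cycle and 4 of 16 import genes rose, and after scaling 2, 1 and 0. The shares of all genes were 12.7% and, after scaling, 2.23%. Back in LPKO against WT livers, of 21 other mitochondrial genes of acyl-CoA metabolism, 1 fell and 1 rose in HFD LPKO and 1 fell and 1 rose in RD LPKO livers. In these comparisons 1.13% of all genes fell and 3.6% rose on HFD, and 2.33% fell and 3.52% rose on RD. Of 21 regulators of the pathway, 1 rose and 1 fell in HFD LPKO and 2 rose and 1 fell in RD LPKO livers. Among these regulators, Acacb, whose product makes the malonyl-CoA that inhibits Cpt1a, rose in both, with changes of 1.96 ± 0.22 (adjusted p = 7.12e-06) in HFD LPKO and 1.18 ± 0.22 (adjusted p = 0.00181) in RD LPKO livers.

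Markers of liver cell types were read beside these changes. The 8 hepatocyte markers summed to 74468 to 99613 TPM in HFD LFKO and 49697 to 70700.0 TPM in HFD LPKO, against 47829.6 to 61299 TPM in HFD WT livers, and to 95581 to 102642 TPM in RD LFKO and 63288 to 70446 TPM in RD LPKO, against 74592 to 77119 TPM in RD WT livers. In HFD LFKO livers 2 of these 8 rose, where 12.7% of all genes rose, and 1 of 8 rose in RD LPKO livers, where 3.52% did. The 10 Kupffer cell markers summed to 88.3 to 123 TPM in RD LPKO, against 156 to 251 TPM in RD WT livers, with a median change of -0.78. All 10 had changes below 0 and an unadjusted limma p under 0.05, 9 had groups that did not overlap, and 1 was called after adjustment. Of all 10551 genes, 1984 had an unadjusted p under 0.05 in that comparison. In RD LFPKO livers the list summed to 79.1 to 149 TPM, with a median of -0.72 against WT, 8 of 10 at an unadjusted p under 0.05 (2298 of all genes) and 1 called. In RD LFKO livers all 10 were also below 0 against WT, with a median of -0.33, 2 at an unadjusted p under 0.05 and 1 called. On HFD none of the 10 was called, and the medians against WT were 0.16 in LFKO, -0.03 in LPKO and 0.39 in LFPKO livers. Of 7 stellate cell markers tested, 4 rose in HFD LFKO livers, where the list summed to 179 to 201 TPM, against 89.4 to 134 TPM in HFD WT livers, and 0 rose after scaling. Of all genes, 12.7% rose in that comparison, and 2.23% after scaling. In HFD LPKO against HFD WT livers all 7 stellate markers had changes above 0 and 5 did not overlap. Of these 7, 0 were called and 5 had an unadjusted limma p under 0.05, as did 2091 of all 10551 genes. In WT livers on HFD against RD, 6 of 7 stellate markers fell (4 after scaling), where 29.8% of all genes fell as deposited. The share of all genes after scaling is not given here. Their median was -0.99, and they summed to 201 to 296 TPM in RD WT livers. No marker of these 3 lists was at 0 in every library of a group, none of 6 lymphocyte and 5 adipocyte markers passed the filter, and Lep, the leptin gene, was at 0 in every library. The part of cell makeup in the pathway's changes was not tested.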

How the data were processed

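Liver RNA from 24 samples in 8 groups of 3 was made into libraries with a stranded mRNA kit, per the labels' protocols. The authors deposited 1 table of TPM values. They were made with kallisto and the GRCm38 (mm10) build, per the submitters' processing notes. The kallisto version, the annotation and the strand setting are not given there. A row without a gene name held at most 0.0250% of a library's TPM and was left out. TPM keeps no read depth, so the number of libraries limits the precision.

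The 34945 named genes were filtered at a mean of 1 TPM, which left 10551, and log2(TPM + 1) was fitted over all 24 libraries with a mean per group in limma 3.58.1 (R 4.3.3) with a mean-variance trend and 16 residual degrees of freedom. The pseudocount understates changes of low genes. P-values were adjusted by Benjamini-Hochberg over all genes in each of 19 comparisons, with calls at an adjusted p under 0.05. The settings varied were the pseudocount (0.1), the filter (none, or 5 TPM), median-of-ratios scaling, values rescaled without urinary protein and mitochondrially encoded transcripts, the compared groups alone, a replicate block and each library left out in turn.

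All 35 members could be named, the targeted genes once, and up to 4 genes of each other list by smallest adjusted p. The members and lists were chosen with earlier results of these data known. Promoter windows of 250 bases were cut at annotated exons for printing.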

Additional observations from a re-analysis of the deposited data

Results flagged for a closer look

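The difference between groups that stood out was the HFD term of LFPKO minus LFKO minus LPKO plus WT, which tests whether the LFPKO change equals the sum of the LFKO and LPKO changes. It was called by limma at an adjusted p under 0.05 for 16 of the 34 genes, all below 0 on the log2 scale. Of all genes, 10.5% were called in that direction. At entry and activation the term was -1.03 for Slc22a5, -0.88 for Acsl1, -1.55 for Acsl3 and -1.16 for Acsl5. In the shuttle it was -0.57 for Cpt1a, -0.88 for Slc25a20 and -1.78 for Crat. Among dehydrogenases it was -0.88 for Acadl and -0.66 for Acad11. In the later steps it was -0.85 for Echs1, -1.01 for Hadh and -0.71 for Acaa2. For unsaturated fatty acids it was -0.87 for Eci1 and -1.04 for Decr1, and for electron transfer -0.60 for Etfa and -0.50 for Etfdh. Cpt1a and Etfa had changes of 0.46 and 0.40 in LFKO, 0.33 and -0.01 in LPKO and 0.23 and -0.21 in LFPKO livers, all on HFD against WT. After median-of-ratios scaling 6 of the 16 were called, beside 3.76% of all genes in that direction. Leaving out single libraries gave counts from 4, without HFD WT replicate 2, to 26, without HFD LPKO replicate 3.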

How the results depend on the processing

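Of 174 calls of a member in a comparison, none changed sign under any alternative run, but many were no longer called. Median-of-ratios scaling left 123 of them called, and so did rescaling without urinary protein and mitochondrially encoded transcripts. Fitting the compared groups alone left 119. Each number that follows is the count of members called. Median-of-ratios scaling gave 3 in RD LFKO, 4 in HFD LFKO, 16 in HFD LPKO and 21 in HFD LFPKO against WT, 1 for diet in WT, 2 in LPKO and 8 in LFPKO livers, and 6 for HFD non-additivity. Rescaling without urinary protein and mitochondrially encoded transcripts gave 2, 4, 19 and 21 against WT in the same order, 3 for diet in WT, 4 in LFKO and 8 in LFPKO livers, and 4 for HFD non-additivity. Fitting the compared groups alone gave 8 in RD LFKO, 1 in HFD LFKO and 6 in HFD LPKO against WT, 1 for diet in LFKO and 10 in LFPKO livers, and 1 for HFD non-additivity. No filter gave 10 for HFD non-additivity, and a filter at 5 TPM gave 1 for diet in LFKO livers, since Pdk4 was no longer tested. Other causes were not tested.

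Leaving out each library in turn gave 0 to 1 in RD LFKO, 14 to 16 in RD LPKO, 11 to 14 in RD LFPKO, 2 to 25 in HFD LFKO, 8 to 11 in HFD LPKO and 9 to 12 in HFD LFPKO against WT. It gave 18 to 19 in RD LFPKO and 21 to 29 in HFD LFPKO against LFKO, and 0 to 0 in RD LFPKO and 0 to 1 in HFD LFPKO against LPKO. For diet it gave 4 to 13 in WT, 1 to 7 in LFKO, 3 to 9 in LPKO and 8 to 18 in LFPKO livers, for HFD non-additivity 4 to 26, and for RD non-additivity and the effects by diet 0 to 0. The labels do not say what samples of the same replicate number share. Of 84 correlations of same-numbered samples, 12 exceeded 0.1, with a range of -0.23 to 0.39 and a median of -0.004. The median for different numbers was 0.0007. With 3 libraries per group, these values cannot decide whether samples were paired. The replicate block gave 15 in HFD LFKO against WT, beside 16 without it, left 166 of the 174 calls and changed no count by over 1.5 times. Depth is unknown, so no counting interval can be given.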
